A study of Bos taurus with 48 samples.

Results

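The genes described here are those whose level in blood leukocytes was lower on d 7 than on d 0 in every control calf. They were taken from the bovine count table by 3 conditions. The mean over all 48 libraries had to be at least 5 CPM (the count of a gene divided by the total count of its library, times 1000000). The level, as log2(CPM + 1), had to be lower on d 7 than on d 0 in each of control calves 1755, 1759, 1763, 1789, 1802 and 1803. The mean of the 6 changes had to be -0.8 or lower. Of 25669 genes in the table, 10262 reached the CPM condition and 925 met all 3. GZMA and CDC40 were left out of these and are not described, which left 923 genes, or 8.99% of the 10262. The genes were thus chosen by their measured decline in control calves, which is given below as a description, with no test.

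The samples were total leukocytes from jugular blood of spring-born, intact male beef calves of a Continental breed (Simmental), all vaccinated against respiratory viruses and grazed with their dams before the trial. On d 0, after the first sample, 6 weaned calves (1758, 1762, 1769, 1770, 1773 and 1809) were separated abruptly from their dams and penned with other weaned calves, and 6 control calves were penned with their dams. Each calf gave 1 library on d 0, before housing, and 1 on each of d 1, d 2 and d 7, which makes 8 groups of 6 libraries. All calves were therefore housed after d 0, no group stayed at grass, and housing cannot be told apart from time.

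Leukocyte RNA is a mixture from neutrophils, lymphocytes, monocytes and eosinophils, and the level of a gene in it depends on the mixture as well as on each cell. Cells that grow or prepare to divide make more of the machinery for copying DNA, exporting and translating mRNA and moving vesicles. Interferon raises another set, the sensors of viral RNA and the chemokines that draw lymphocytes. In bulk RNA, fewer cells of a type and less RNA per cell cannot be told apart.

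Total counts were 1662995 to 4256011 per library with a median of 3600161, so that 3 counts correspond to 0.705 to 1.80 CPM, for counting error only. In 300 genes that differed between calves, 44 libraries were nearest to the other days of their own calf and 4 were nearer to another calf. These 4 were the libraries labelled weaned calf 1758 on d 0 and on d 7, weaned calf 1770 on d 7 and control calf 1755 on d 2. On d 7 the libraries labelled 1758 and 1770 were each nearest to the other calf of this pair. They entered the rule only through the mean CPM over 48 libraries, not through the decline. The tested comparisons across the 923 genes that rest on them are given with and without them. Other values are given with them unless stated. The libraries were sequenced on 8 flowcells, and the d 0 and d 7 libraries shared a flowcell in 2 control calves (1802 and 1803) and in 4 weaned calves (1758, 1762, 1769 and 1770). At most 60% of the markers fixed for a blood cell type could be identified, so that the cell types of the samples were not examined by lists. TRAT1, an adaptor of the T cell receptor, had 10.1 to 105 CPM over the 48 libraries, KLRK1, a receptor of NK and cytotoxic T cells, 0.876 to 37.1 CPM, PGLYRP1, a granule protein of neutrophils, 2.12 to 35.5 CPM, and HBB, the haemoglobin beta chain of red cells, 0.827 to 38.3 CPM.

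The 923 genes had a mean level of 5.01 to 599 CPM with a median of 34.4 CPM, against a median of 51.9 CPM over all 10262 genes. Their mean change in control calves from d 0 to d 7 ran from -1.80 to -0.80 on the log2(CPM + 1) scale with a median of -0.95, and 341 genes changed by -1 or lower. The 3 genes just inside the threshold, ENSBTAG00000001107, ENSBTAG00000012929 and ENSBTAG00000011524, changed by -0.8007, -0.8007 and -0.8004. The 3 just outside it, ALG10B, ENSBTAG00000004054 and ENSBTAG00000016473, changed by -0.7996, -0.7991 and -0.7987, so that the threshold cuts through a continuous range. Lower in all 6 control calves were 1781 of the 10262 genes (17.4%), and by the rule all 923. In 170 of the 923 genes (18.4%) every d 7 value of the control calves lay below every d 0 value, against 2.41% of the 10262 genes, from which nothing is read since the rule used these libraries. For the same reason nothing is read from the edgeR calls in this contrast, 272 of the 923 genes lower at an adjusted p under 0.05 with a 2-fold change, against 3.28% of 13829 genes tested. A symbol, taken from the human orthologs in the tables of the study, was at hand for 112 of the genes. These tables name only genes that the study had listed as changed in these same counts, so the named genes are not a random sample of the 923. With no condition on CPM, 643 bovine identifiers had such a symbol. The gene lists below were fixed with earlier results known, so nothing is read from how many identified genes of a list are among the 923.

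As a share of all counts in a library, the 923 genes together took 3.53% to 8.01% in control calves on d 0, with a mean of 5.38% ± 1.69 (SD, n = 6). The mean was 4.61% ± 2.52 on d 1, 4.07% ± 0.86 on d 2 and 2.71% ± 0.68 on d 7 (SD, n = 6 each). In weaned calves, whose libraries entered the choice of the genes only through the mean CPM over 48 libraries, the share was 4.01% ± 1.17 on d 0, 5.54% ± 2.15 on d 1, 5.08% ± 2.73 on d 2 and 4.92% ± 2.60 on d 7 (SD, n = 6 each), and without calf 1758 it was 4.16% ± 1.24, 5.65% ± 2.39, 3.995% ± 0.66 and 3.93% ± 1.05 (SD, n = 5 each). A few libraries held most of the spread. The share was 9.83% in weaned calf 1773 on d 1, 10.5% and 9.88% in weaned calf 1758 on d 2 and d 7, and 9.17% in control calf 1755 on d 1, while the lowest value was 2.03% in control calf 1759 on d 7. The number of genes detected was 13179 in the library with the lowest share and 14905 in that with the highest, over a range of 12919 to 14950 in all libraries. Its part in the result was not tested.

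**Figure D1:**
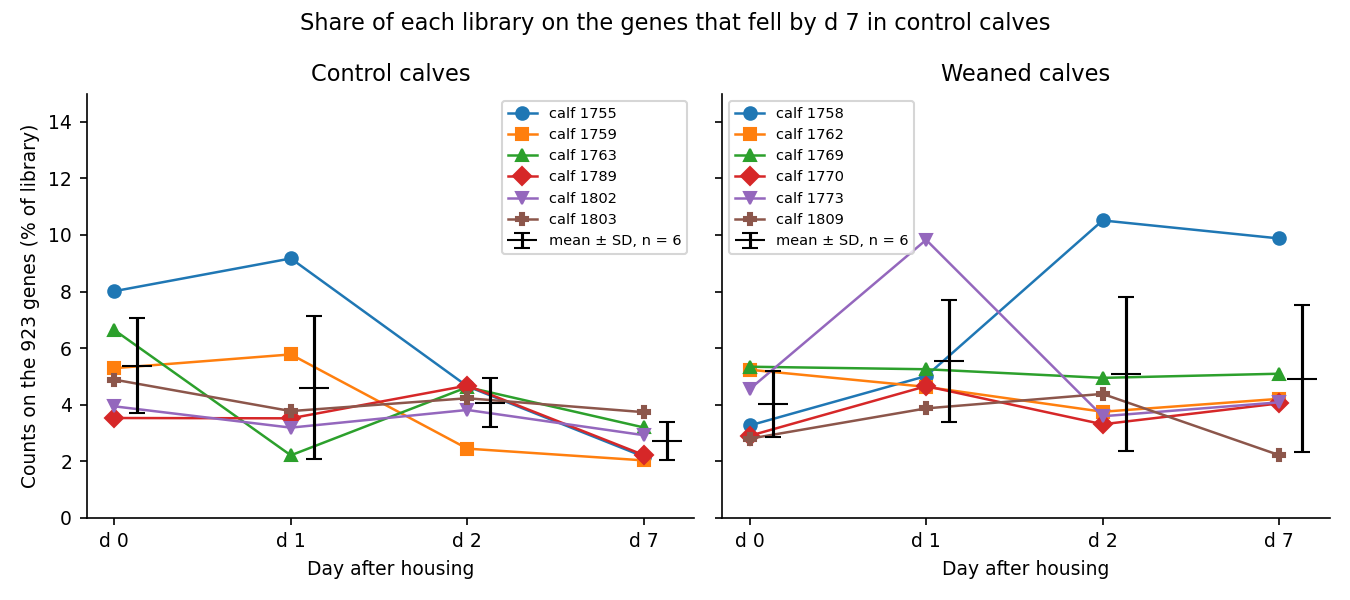
Share of each library's counts on the 923 genes (vertical axis, % of library) by day, with 1 line per calf, control calves on the left and weaned calves on the right, and the mean ± SD of 6 calves in black. Control calves fall to a mean of 2.71% on d 7 because the genes were chosen for it, and the weaned calves have single high libraries, 1773 on d 1 and 1758 on d 2 and d 7.

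The decline in control calves was uneven. The median change over the 923 genes from d 0 to d 7 was -1.90 in calf 1755, -1.37 in calf 1759, -1.03 in calf 1763, -0.68 in calf 1789, -0.47 in calf 1802 and -0.28 in calf 1803. The 2 calves with the smallest changes are those whose d 0 and d 7 libraries shared a flowcell. Averaged over these 2 calves alone, the median change was -0.41 and 53 genes (5.74%) changed by -0.8 or lower, whereas over the other 4 calves the median was -1.23 and 920 genes (99.7%) did. In weaned calves the median was 0.43 over the 4 calves on the same flowcell and -0.22 over the 2 on different flowcells. Of the first 4, calves 1758 and 1770, whose d 7 libraries did not match their own calf, had medians of 1.68 and 0.44. Calves 1762 and 1769 on the same flowcell had -0.29 and -0.09. Calves 1773 and 1809 on different flowcells had -0.11 and -0.34. With so few calves, flowcell and calf cannot be told apart here. Over all 10262 genes the median change by calf lay between -0.26 and 0.04.

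In some calves nearly all of the 923 genes moved one way and in others they were split. Of 30 changes from d 0 outside the contrast of the rule, 14 had at least 90% of the genes in one direction and 5 had under 70%. The 30 include the changes of control calves to d 1 and d 2, which start from d 0 libraries that the rule used. There the choice of the genes itself favours a fall, also in calf 1763 on d 1, and nothing is read from it. The most even were weaned calf 1769 on d 1, with 480 genes lower and 443 higher, and control calf 1789 on d 1, with 432 lower and 491 higher. In weaned calf 1758 all 923 were higher on d 2 than on d 0 and 921 were higher on d 7, with median changes of 1.78 and 1.68, in a calf whose d 0 library did not match it. In weaned calf 1773, 922 genes were higher on d 1, with a median change of 1.17, but on d 2 the median was -0.34 and 841 genes were lower. In control calf 1763 all 923 were lower on d 1 than on d 0, with a median of -1.59 and a change of flowcell, and 918 were higher on d 2 than on d 1, with a median of 1.06. Between the same libraries the medians over all 10262 genes lay between -0.10 and 0.12.

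**Figure D2:**
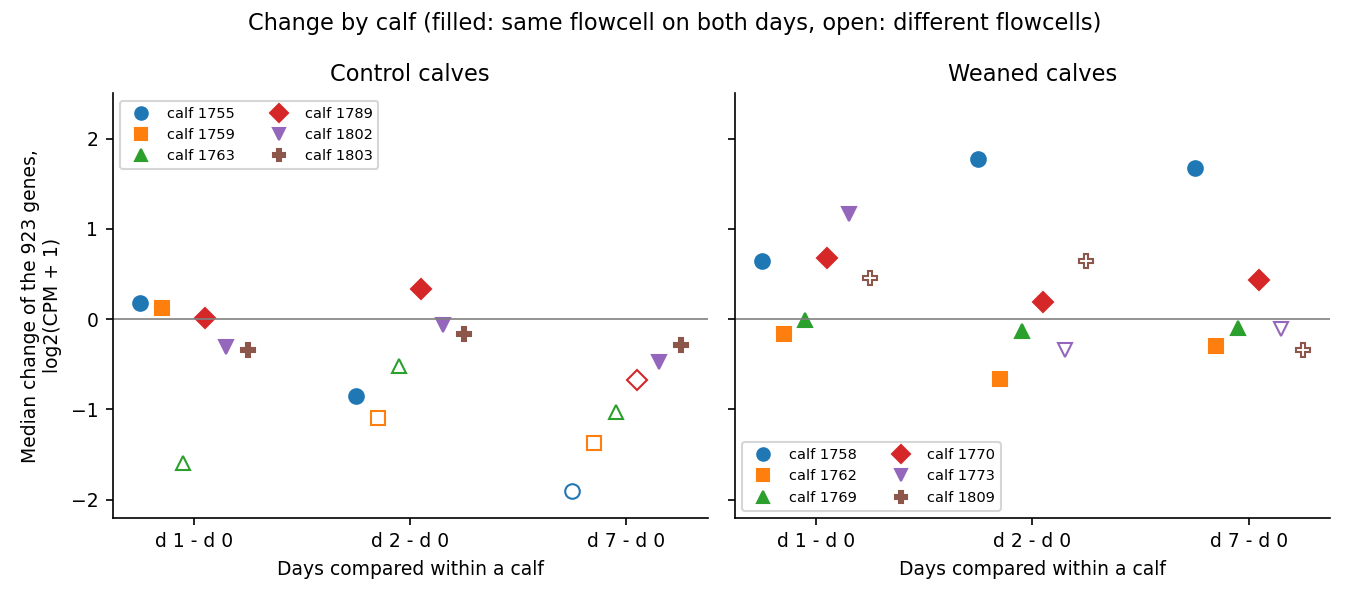
Median change of the 923 genes from d 0 to d 1, d 2 and d 7 within each calf (vertical axis, log2(CPM + 1)), with control calves on the left and weaned calves on the right. Filled symbols mark calves whose 2 libraries shared a flowcell and open symbols those on different flowcells; weaned calf 1758 stands at 1.78 on d 2 and 1.68 on d 7, and the filled control calves on d 7 stand at -0.47 and -0.28.

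Markers of blood cell types changed as well, although several had few counts. Over the 48 libraries the median was 0.34 CPM or lower for each of the 3 genes with the symbol CAMP. It was 0 CPM for SLC4A1, 0.64 CPM for KLRC1 and 1.88 CPM for PPBP, against a 3-count level of 0.705 to 1.80 CPM. The changes are given as means, without their spread between calves. From d 0 to d 7, the mean change in control calves was -1.01 for TRAT1, -1.30 for KLRD1 and -0.80 for KLRK1 and -0.69 for KLRC1, receptors of NK cells, and 1.28 for PGLYRP1. TRAT1 is 1 of 4 genes that were left out by name when the genes were chosen, of which 2 had met the conditions, and it is not among the 923. In weaned calves the changes of these 5 genes, in the same order, were 0.10, 0.07, 0.68, -0.14 and -0.09, and without calf 1758 they were -0.41, -0.22, 0.21, -0.37 and 0.16. KLRD1, KLRK1 and KLRC1 did not meet the conditions of the rule and are not among the 923 either. The 3 genes with the symbol CAMP, the other neutrophil marker, changed by 0.30 to 0.52 in control and by 0.04 to 0.34 in weaned calves. HBB, ALAS2 and SLC4A1 of red cells changed by 0.77, 0.30 and 0.21 in control and by -0.58, -1.12 and -0.05 in weaned calves. IL5RA of eosinophils and PPBP of platelets changed by -0.40 and -0.07 in control and by -0.15 and -0.33 in weaned calves. These are 1 of 11 T cell, 3 of 7 NK cell, 2 of 10 neutrophil, 3 of 5 red cell, 1 of 5 eosinophil and 1 of 5 platelet markers, and their part in the decline of the 923 genes was not tested. No marker of B cells, gamma-delta T cells or monocytes could be identified.

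Sensors of viral RNA and interferon-linked genes made up the first group of named genes, with 6 of 56 listed symbols identified and all 6 among the 923. From here on, levels of 6 calves are given as the lowest, the median and the highest CPM, and changes as the mean ± SD of the within-calf changes of log2(CPM + 1). DDX58 (ENSBTAG00000003366), which encodes the RNA sensor RIG-I, had 60.4, 131 and 197 CPM in control calves on d 0 and 21.0, 36.8 and 69.3 CPM on d 7, a change of -1.57 ± 0.61 (n = 6) and the largest decline of any named gene. In weaned calves it had 63.1, 84.4 and 149.7 CPM on d 0 and 58.4, 82.2 and 209 CPM on d 7, so that the days overlapped, and 3 of 6 calves were lower, with a mean of -0.26 without calf 1758. TLR3 and TLR7, endosomal receptors for double- and single-stranded RNA, changed by -0.99 ± 0.40 and -1.15 ± 0.73 in control calves (n = 6) and by 0.49 ± 1.15 and 0.07 ± 0.71 in weaned calves (n = 6), or 0.11 and -0.13 without calf 1758. TNFSF10, the death ligand TRAIL, and PNPT1, a mitochondrial RNA-degrading enzyme, changed by -1.08 ± 0.66 and -1.19 ± 0.57 in control calves and by 0.15 ± 0.83 and 0.16 ± 0.94 in weaned calves (n = 6), or -0.18 and -0.17 without calf 1758.

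CXCL10 (ENSBTAG00000001725), a chemokine for T cells, had few counts and did not follow the other genes in every calf. Control calves had 5.26, 16.8 and 32.1 CPM on d 0 and 0.666, 6.19 and 8.18 CPM on d 7, where calf 1789 held 2 counts. Weaned calves had 2.20, 9.16 and 18.1 CPM on d 0 and 2.63, 4.77 and 7.76 CPM on d 7, and 4 of 6 calves were lower on d 7, with a change of -0.53 ± 0.99 (n = 6). It was the most negative change of the 112 named genes in weaned calves, where OLR1, CDK7 and LAMA4 were the only others with a mean below 0. Without calf 1758 its mean was -0.74, and 83 of the 112 were below 0. On d 2 it reached 75.2 CPM in weaned calf 1762 and 45.4 CPM in control calf 1789, in which the median change of the 923 genes from d 0 was -0.66 and 0.33.

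Genes of the cell cycle and DNA replication counted 5 among the 15 that were identified at a mean of 5 CPM or more. MCM10 (ENSBTAG00000016406), a factor needed to start replication forks, had 13.05, 17.9 and 28.1 CPM in control calves on d 0 and 4.02, 6.10 and 12.5 CPM on d 7, with no overlap, and changed by -1.36 ± 0.80 (n = 6). CENPI, a part of the kinetochore, had 30.7, 45.2 and 98.4 CPM and 12.7, 17.3 and 31.0 CPM, with calf 1755 at 98.4 CPM on d 0. SMC2, a subunit of condensin, and ORC2L and ORC4L, the older symbols of the origin recognition subunits ORC2 and ORC4, changed by -0.99 ± 0.63, -1.19 ± 0.77 and -1.04 ± 0.90 in control calves (n = 6). In weaned calves all 5 had a mean change above 0 on d 7, with a median of 0.27, and without calf 1758 all 5 were below 0, with a median of -0.09.

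DNA repair and checkpoint genes counted 6 among 13. ATR (ENSBTAG00000011529), the kinase that senses stalled replication, had 17.2, 31.8 and 69.7 CPM on d 0 and 11.5, 16.1 and 21.6 CPM on d 7 in control calves. REV3L, the catalytic subunit of a translesion polymerase, had 59.8, 74.9 and 161 CPM and 24.6, 48.2 and 62.5 CPM. In both genes the 2 days overlapped. FANCL, XRCC4, RAD1 and BRCA1, which act in crosslink repair, end joining, the checkpoint clamp and recombination, changed by -1.01 ± 0.72, -1.01 ± 0.78, -1.0 ± 0.67 and -0.96 ± 0.59 (n = 6).

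Centrosome genes also counted 6 among 13. CP110 (ENSBTAG00000003960), which caps centrioles, had 9.24, 17.0 and 31.6 CPM on d 0 and 3.93, 7.17 and 11.6 CPM on d 7 in control calves, a change of -1.14 ± 0.67 (n = 6). Its 3 high d 0 values were those of calves 1755, 1759 and 1763, at 31.6, 21.1 and 25.5 CPM. NEDD1, which anchors the gamma-tubulin ring, changed by -1.08 ± 0.99, and CEP76, CEP152, ALMS1 and CEP192, all proteins of the centrosome, by -1.13 to -0.97 (n = 6).

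Genes for handling mRNA counted 7 among 10, where CDC40, also on this list, was left out by name and could not be counted. XPO1 (ENSBTAG00000013254), the main nuclear export receptor, had 58.3, 80.3 and 124 CPM on d 0 and 25.1, 31.9 and 52.7 CPM on d 7 in control calves, with no overlap, and changed by -1.23 ± 0.70 (n = 6). In weaned calves it had 41.6, 62.2 and 80.5 CPM and 34.4, 59.8 and 176 CPM, the highest in calf 1758. NCBP1, the large subunit of the nuclear cap-binding complex, and PRPF38A, a spliceosome protein, changed by -1.0 ± 0.53 and -1.03 ± 0.48 in control calves. NUP43 and TMEM48, both of the nuclear pore, changed by -1.06 ± 0.87 and -1.04 ± 0.69 (n = 6).

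For translation, 8 of 9 identified genes were among the 923. The enzymes that charge tRNA with isoleucine, leucine, arginine and aspartate, IARS, LARS, RARS and DARS, fell together in every control calf, as the rule required. IARS (ENSBTAG00000000974) had 77.9, 109 and 184 CPM on d 0 and 32.0, 52.8 and 77.7 CPM on d 7, and the days did not overlap, while weaned calves had 51.6, 74.4 and 105 CPM and 50.8, 84.9 and 190.5 CPM. LARS had 49.1, 64.4 and 114 CPM and 24.1, 31.7 and 45.9 CPM in control calves. EIF4E, which binds the mRNA cap, and EIF4A2, its helicase partner, changed by -0.99 ± 0.68 and -1.02 ± 0.56 (n = 6). NMD3, an export adaptor of the large ribosomal subunit, and HBS1L, a ribosome rescue factor, changed by -1.18 ± 0.88 and -0.94 ± 0.70 (n = 6).

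**Figure D3:**
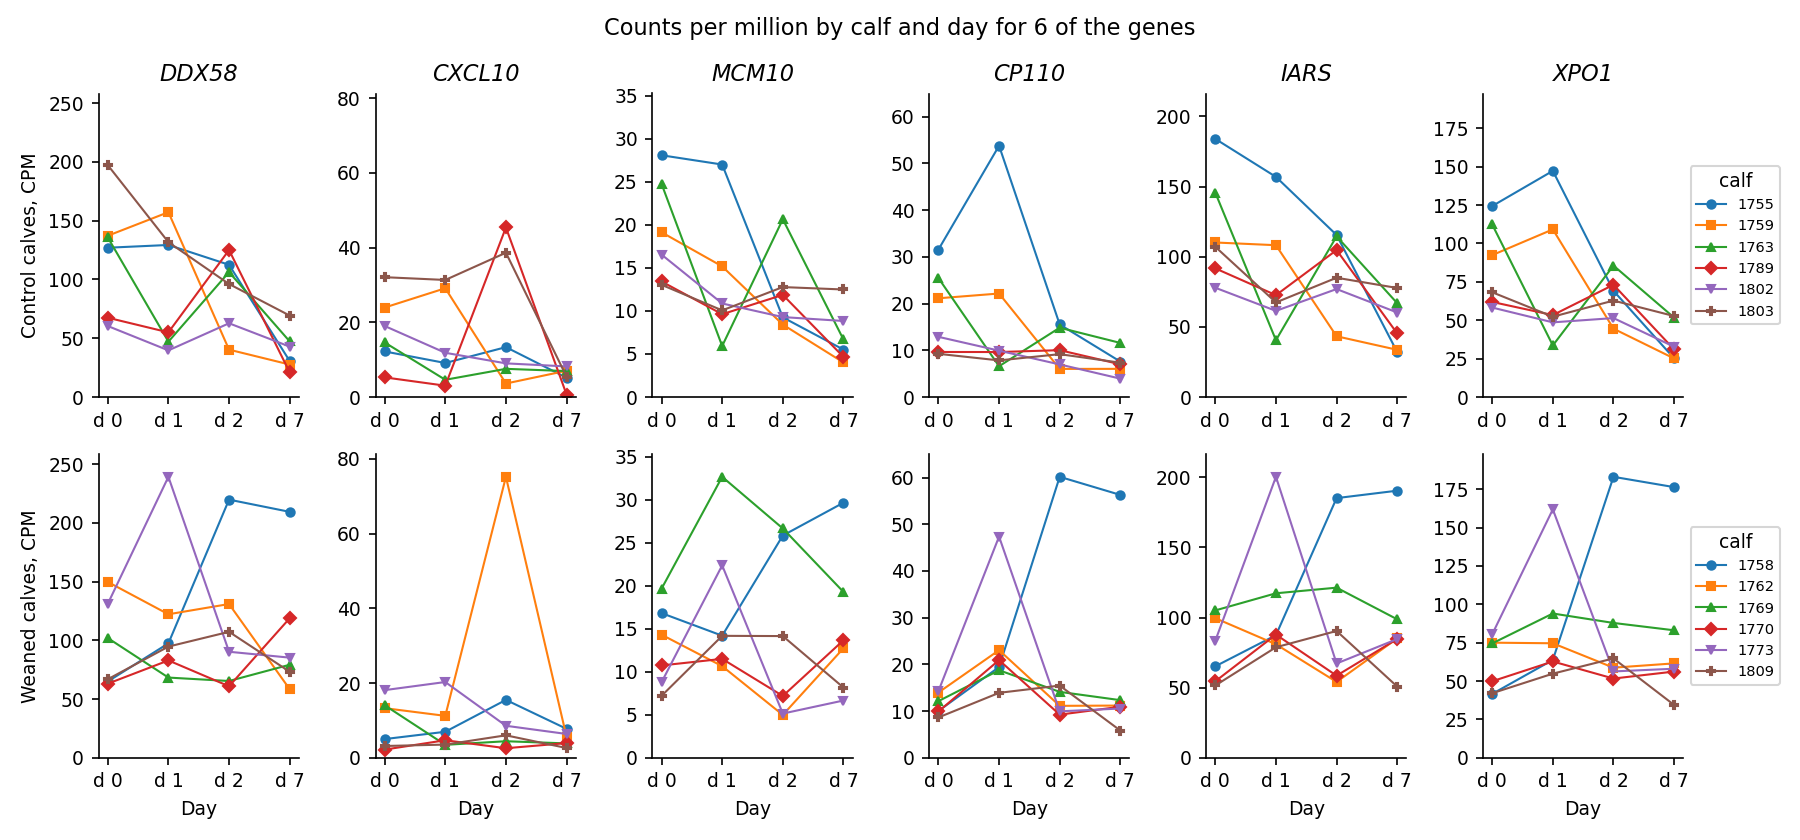
CPM of DDX58, CXCL10, MCM10, CP110, IARS and XPO1 by day (horizontal axis), with 1 line per calf, control calves in the upper row and weaned calves in the lower, and 1 vertical scale per gene. The libraries of weaned calf 1758 on d 2 and d 7 are high in all but CXCL10, which peaks on d 2 in weaned calf 1762 at 75.2 CPM and in control calf 1789 at 45.4 CPM.

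Kinases and small GTPases counted 13 among 19. JAK2 (ENSBTAG00000012047), which signals for cytokine receptors, had 20.7, 53.5 and 92.5 CPM on d 0 and 18.7, 25.6 and 35.7 CPM on d 7 in control calves, a change of -0.89 ± 0.68, the smallest of the group. PIK3C3, the lipid kinase that starts autophagy, changed by -1.32 ± 0.94, the largest of the group. RICTOR, a subunit of mTORC2, and MAP3K7, the kinase TAK1 of NF-kappaB signalling, changed by -1.01 ± 0.66 and -1.12 ± 0.88, and RASA1, a GTPase-activating protein, by -0.96 ± 0.59 (n = 6).

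Genes of the proteasome, of ubiquitin transfer and of vesicle traffic counted 13 among 14. PSME4 (ENSBTAG00000020262), a proteasome activator, had 54.3, 82.0 and 166 CPM on d 0 and 27.5, 42.2 and 50.0 CPM on d 7 in control calves, with no overlap. COPB1 and SEC24A, coat proteins of vesicles between the endoplasmic reticulum and the Golgi, changed by -1.12 ± 0.81 and -1.04 ± 0.55, and STXBP3, which binds syntaxins, by -1.30 ± 0.64 (n = 6). Lymphocyte receptors and effectors counted 2 of 10, BTLA, an inhibitory receptor, and TEC, a tyrosine kinase, at -1.12 ± 0.45 and -1.02 ± 0.58 (n = 6). GZMA and TRAT1, also on this list, were left out by name and could not be counted. Outside the lists, OLR1, a receptor for oxidised lipoprotein, PBEF1, the older symbol of NAMPT, which makes a precursor of NAD, and the chaperones HSPH1 and CCT6A changed by -1.29 ± 0.57, -1.25 ± 0.65, -1.25 ± 0.62 and -1.27 ± 0.93 (n = 6). CCT6A had 0.344 CPM in 1 control library on d 7, which is under the 3-count level.

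**Figure D4:**
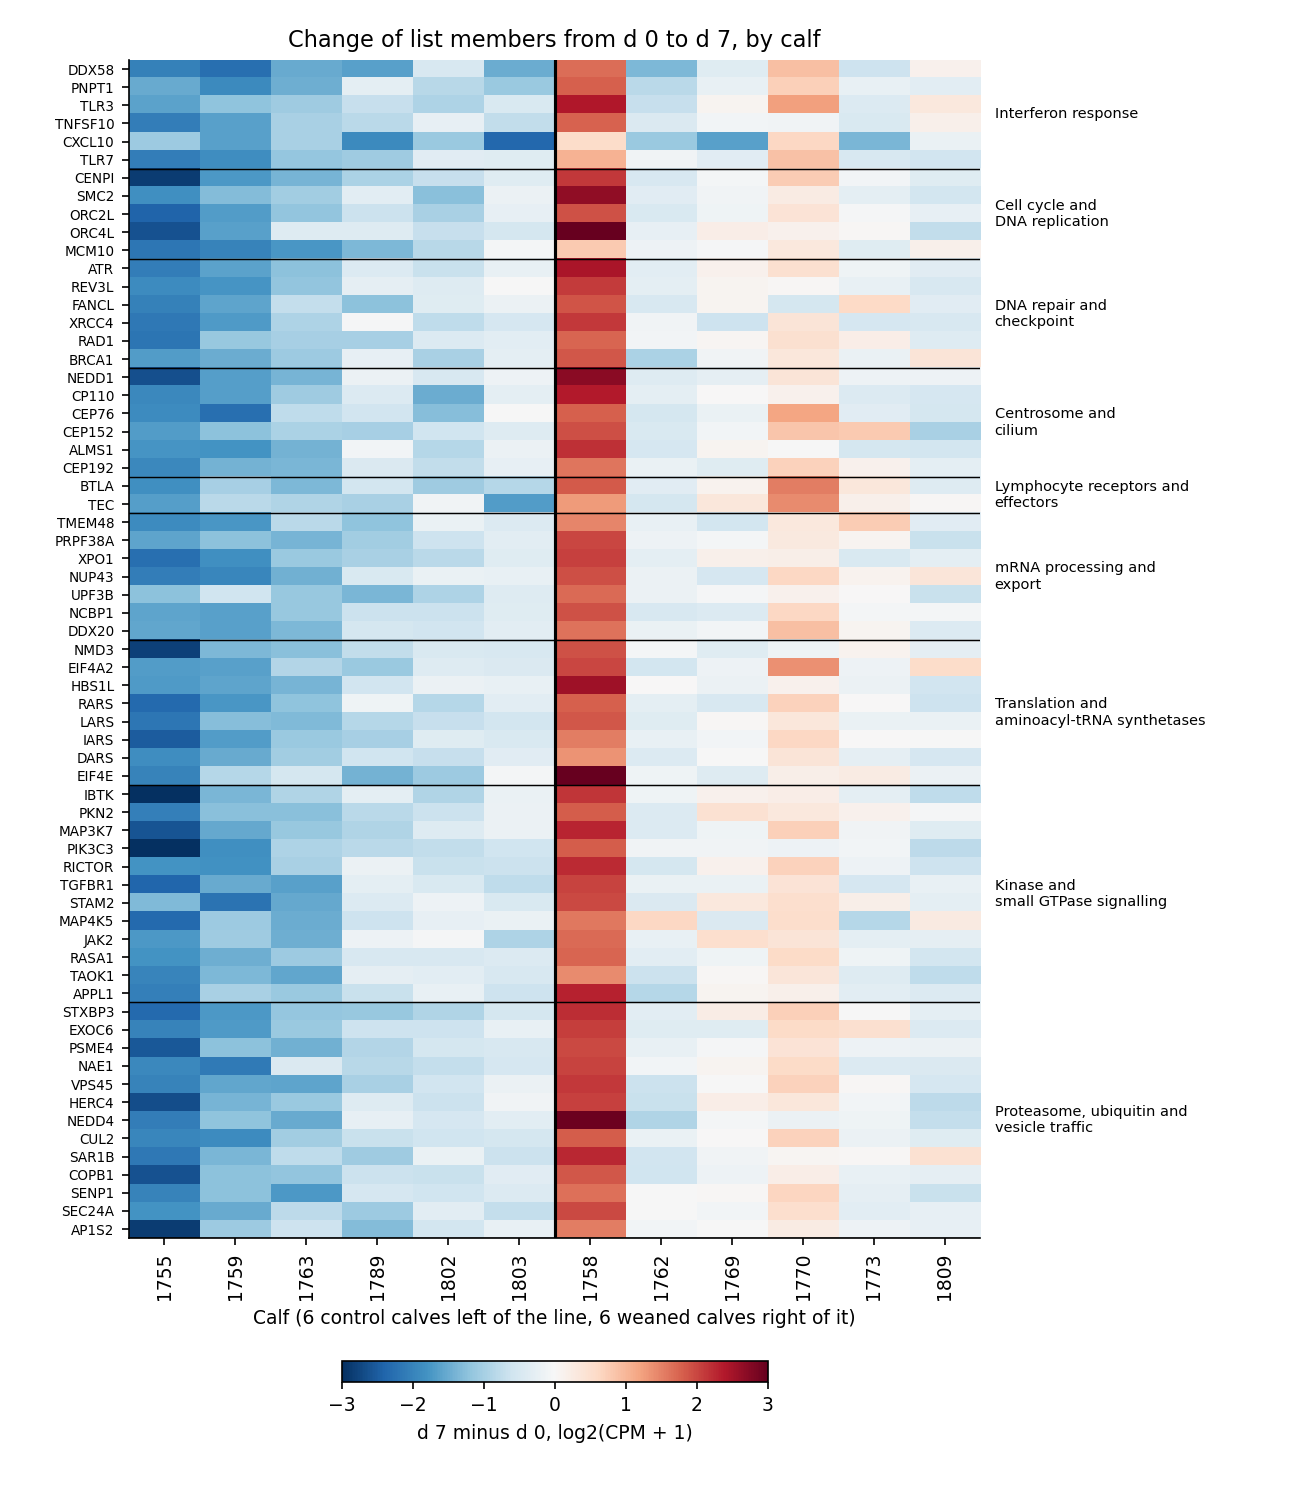
Change from d 0 to d 7 in log2(CPM + 1) (colour, blue lower and red higher, saturated at 3) for the genes of the lists (rows, 1 gene not shown) in 6 control and 6 weaned calves (columns). The control columns are blue as the rule required, deepest in calf 1755, and among weaned columns calf 1758 is red in every gene, calf 1770 is mostly pale red and the other 4 are mixed.

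The changes in weaned calves were not used by the rule, although their libraries counted in the mean CPM. On d 1 against d 0 the mean change over 6 calves was above 0 in 919 of the 923 genes and below 0 in 4, with a median of 0.47, against a median of 0.02 over all 10262 genes. Higher in all 6 calves were 83 genes (8.99%), against 4.38% of the 10262, and lower in all 6 were 0 genes, against 3.37%. By calf, the median change was 1.17 in 1773, 0.68 in 1770, 0.65 in 1758, 0.45 in 1809, -0.01 in 1769 and -0.16 in 1762. With edgeR's quasi-likelihood test over 14038 genes, 0 of the 923 genes reached an adjusted p under 0.05 with a 2-fold change (0% of all genes tested), and the smallest adjusted p among them was 0.423. At an unadjusted p under 0.05, 222 of the 923 (24.1%) were higher and 0 lower, against 6.07% and 4.3% of all genes tested, and DESeq2 gave 0 called and 301 at that level. With calf as replicate block the 222 became 587 of the 923, against 13.7% of all genes, and 372 with that block and without calf 1758, against 8.23%, with 0 called. Leaving out 1 weaned calf at a time gave 27 (without 1773) to 438 (without 1762), and 73 without 1758, with 0 called in each.

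The named genes followed this on d 1. Of the 112, 110 had a mean change above 0, 39 were higher at an unadjusted p under 0.05, and 13 were higher in all 6 calves. CP110 had 8.64, 11.1 and 14.3 CPM on d 0 and 13.9, 20.2 and 47.4 CPM on d 1, with calf 1773 highest at 47.4 CPM. Every calf was higher on d 1, although the lowest d 1 value was below the highest d 0 value. Its fitted log2 change was 1.02 (SE 0.27, edgeR adjusted p = 0.423), and without calf 1773 it was 0.76. CCNT2, a cyclin of the kinase that releases paused RNA polymerase, had 24.0, 33.7 and 47.3 CPM on d 0 and 39.8, 51.3 and 126 CPM on d 1, with a fitted change of 0.81 (SE 0.27, edgeR adjusted p = 0.423) in 6 of 6 calves, and 0.50 without calf 1773. MST4, a kinase of the germinal centre family, had 42.2, 64.3 and 83.5 CPM and 66.3, 89.1 and 193 CPM, with a fitted change of 0.68 (SE 0.24, edgeR adjusted p = 0.423). By list, 13 of 13 genes of the proteasome, ubiquitin and vesicle list were above 0, with a median of 0.59, and 7 were higher at the unadjusted threshold. The same counts were 13 of 13 and 6 for kinases and GTPases, 8 of 8 and 2 for translation, 7 of 7 and 0 for mRNA handling, 5 of 5 and 0 for the cell cycle, 6 of 6 and 2 for DNA repair, 6 of 6 and 2 for the centrosome, 2 of 2 and 1 for lymphocyte receptors, and 5 of 6 and 2 for the interferon list. Over all 10262 genes 47.1% had a mean below 0, and 6.07% of all genes tested were higher at that threshold. Of the 923 genes themselves, 919 were above 0 and 24.1% were higher at that threshold. Each list holds only members of the 923, named from genes that the study had listed as changed in these counts. Nothing is therefore read from the counts by list about any single function. CXCL10 and CDK7, the kinase of the basal transcription factor TFIIH, were the 2 named genes below 0, at -0.08 ± 0.89 and -0.10 ± 0.48 (n = 6).

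On d 2 and d 7 the mean changes in weaned calves depended on calf 1758. On d 2, 880 of the 923 genes were above 0 with a median of 0.26, and without calf 1758 326 were above and 597 below 0 with a median of -0.05. On d 7, 865 were above 0 with a median of 0.21, without calf 1758 249 were above and 674 below with a median of -0.08, and without calves 1758 and 1770, whose d 7 libraries did not match their own calf, 869 were below with a median of -0.21. In the 6 calves the median change on d 7 was 1.68, 0.44, -0.09, -0.11, -0.29 and -0.34, in calves 1758, 1770, 1769, 1773, 1762 and 1809. Higher in all 6 calves were 2 of the 923 genes (0.217%) on each of d 2 and d 7, against 0.546% and 0.965% of all 10262 genes, and 0 genes were lower in all 6, against 2.8% and 1.2%.

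**Figure D5:**
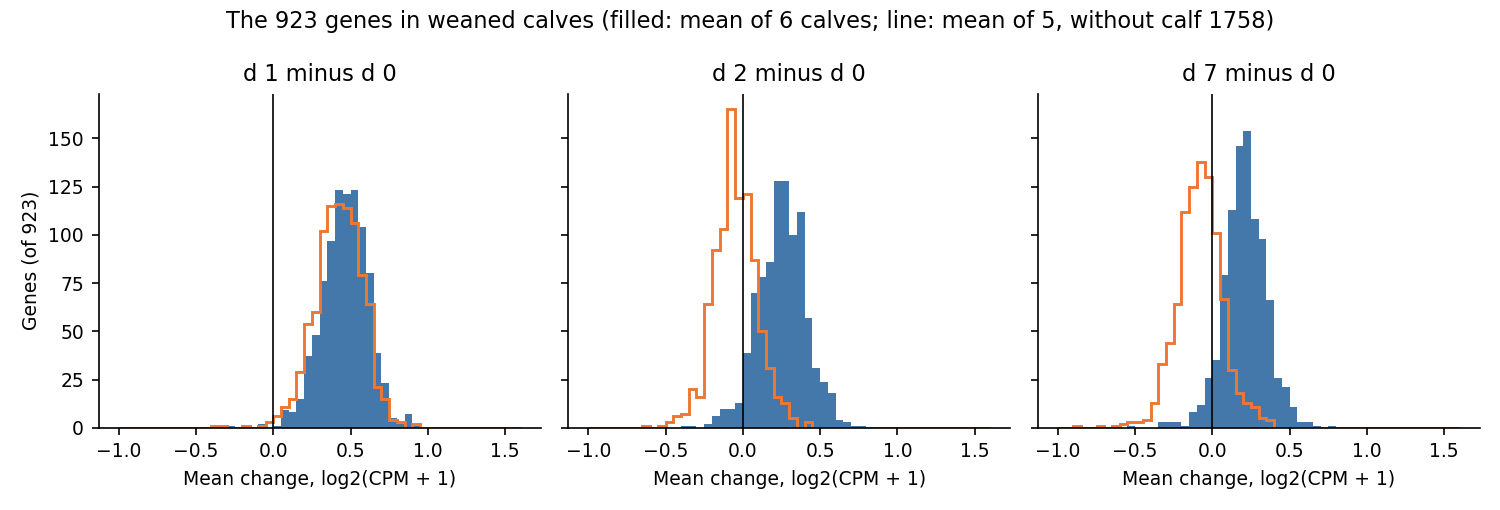
Number of the 923 genes (vertical axis) by mean change in weaned calves from d 0 to d 1, d 2 and d 7 (horizontal axis, log2(CPM + 1)), with all 6 calves as filled bars and without calf 1758 as a line. On d 1 both lie above 0, with medians of 0.47 and 0.43, and on d 2 and d 7 the line moves to medians of -0.05 and -0.08.

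For d 7 against d 0 in weaned calves, edgeR called 0 of the 923 among 14026 genes tested (0% of all), with a smallest adjusted p of 0.92. At an unadjusted p under 0.05, 3 were higher (0.325%) and 0 lower, against 1.72% and 0.927% of all genes, and DESeq2 gave 0 called and 7 higher. Leaving out 1 weaned calf at a time gave 0 (without 1758) to 21 (without 1809) higher. With calf as replicate block and without calves 1758 and 1770, 206 of the 923 were lower at that level and 0 higher, against 4.28% and 3.32% of all genes, again with 0 called. ATP6V1D, a subunit of the vacuolar proton pump, had 9.74, 14.6 and 22.1 CPM on d 0 and 10.2, 21.8 and 39.1 CPM on d 7. Its fitted log2 change was 0.57 (SE 0.28, edgeR adjusted p = 0.92), in 5 of 6 calves, and 0.25 without calf 1758. BTLA had 6.05, 12.4 and 16.7 CPM and 4.38, 17.2 and 44.6 CPM, with a fitted change of 0.72 (SE 0.41, edgeR adjusted p = 0.92), which was 0.31 without calf 1758. CXCL10 had a fitted change of -0.88 (SE 0.46, edgeR adjusted p = 0.92), which was -1.17 without calf 1758. OLR1 had 11.2, 16.9 and 31.8 CPM on d 0 and 6.71, 15.0 and 36.0 CPM on d 7 and was lower in 5 of 6 calves, at -0.26 ± 0.87 (n = 6), and at -0.60 without calf 1758.

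For d 2 against d 0 in weaned calves, edgeR called 0 of the 923 among 13984 genes (0% of all), with a smallest adjusted p of 0.944. At an unadjusted p under 0.05, 13 were higher (1.41%) and 0 lower, against 1.39% and 0.722% of all genes, and leaving out 1 weaned calf at a time gave 0 (without 1758) to 54. DESeq2 gave 0 called and 30 higher. With calf as replicate block and without calf 1758, 4 were higher and 4 lower, against 1.26% and 1.34% of all genes. EIF4E had 1.77, 6.46 and 9.21 CPM on d 0 and 6.91, 10.3 and 25.4 CPM on d 2, with a fitted change of 0.90 (SE 0.37, edgeR adjusted p = 0.944), 0.33 without calf 1758. JAK2 had 19.6, 41.4 and 48.1 CPM and 33.1, 45.2 and 148 CPM, with a fitted change of 0.80 (SE 0.35, edgeR adjusted p = 0.944), 0.38 without calf 1758.

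Between treatments, the genes were compared on d 1 and d 2, the days that the rule did not use. The control calves were those that the rule used on its own days, so these comparisons are not independent of it. On d 1 the median difference between weaned and control calves was 0.23 over the 923 genes and 0.00 over all 14078 genes tested. edgeR and DESeq2 called 0 of the 923 (0% of all), the smallest adjusted p in edgeR was 0.959, and 6 of the 923 (0.65%) were higher in weaned calves at an unadjusted p under 0.05, 8 in DESeq2, and 0 were lower, against 1.03% and 1.98% of all genes. Single high libraries stood on both sides, control calf 1755 and weaned calf 1773. Without 1755 the 6 became 372 and without 1773 they became 2, with medians of 0.57 and -0.04, and without both they were 133, with a median of 0.31. With flowcell as a block they were 451, with a median of 0.74. In that fit control calves 1755 and 1803 and weaned calves 1762 and 1809 were each alone on their flowcell and added nothing to the difference. TMEM48 had 5.76, 10.9 and 19.0 CPM in weaned and 2.96, 4.60 and 12.7 CPM in control calves, a fitted difference of 0.82 (SE 0.38, edgeR adjusted p = 0.959). CXCL10 had 3.48, 5.84 and 20.3 CPM in weaned and 3.02, 10.5 and 31.3 CPM in control calves, a fitted difference of -0.87 (SE 0.58, edgeR adjusted p = 0.959), which was -1.37 without weaned calf 1773 and -0.47 without control calf 1803.

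On d 2 the median difference was 0.34 over the 923 genes and 0.03 over the 13949 tested, with 0 called by edgeR or DESeq2 (0% of all) and a smallest adjusted p of 0.95 in edgeR. At an unadjusted p under 0.05, 34 of the 923 (3.68%) were higher in weaned calves, 40 in DESeq2, and 0 were lower, against 2.47% and 0.903% of all genes. Without weaned calf 1758 they were 3, with a median of -0.05, without weaned calf 1770 they were 101, and without calf 1758 and control calf 1755, whose d 2 library did not match its calf, they were 7, with a median of -0.01. MTMR7, a lipid phosphatase, had 4.88, 8.89 and 27.0 CPM in weaned and 3.61, 5.22 and 7.55 CPM in control calves, a fitted difference of 1.07 (SE 0.41, edgeR adjusted p = 0.95), 0.60 without calf 1758.

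Within control calves, d 2 and d 1 could be compared without the d 0 and d 7 libraries, but in the same calves that the rule used. In calf 1759 the d 1 library shared a flowcell with d 0 and the d 2 library with d 7. The comparison is therefore not independent of the rule. The median change over the 923 genes was -0.20, with 0 of 13880 genes called by edgeR and 0 of the 923 by DESeq2, and 3 of the 923 (0.325%) were lower at an unadjusted p under 0.05 by either tool and 0 were higher, against 0.735% and 0.303% of all genes. With calf as replicate block 1 was lower, against 0.584%, and with that block and without calf 1755, whose d 2 library did not match its calf, 0 were, against 0.295%. By calf the median change was 1.06, 0.32, 0.25 and 0.18 in calves 1763, 1789, 1802 and 1803, and -1.06 and -1.23 in calves 1755 and 1759. Without calf 1755 the fitted median was 0.12. FANCL had 6.91, 8.73 and 19.3 CPM on d 1 and 3.61, 7.15 and 10.0 CPM on d 2, a fitted change of -0.56 (SE 0.30, edgeR adjusted p = 1.00), lower in 4 of 6 calves, and -0.33 without calf 1755.

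The remaining comparisons share control libraries of d 0 or d 7 with the rule and are given as values only. The fitted median over the 923 genes was -0.20 for d 1 and -0.38 for d 2 against d 0 in control calves. Weaned minus control calves had a fitted median of -0.43 on d 0, before the treatments began, and of 0.84 on d 7. Apart from d 1 against d 0, these fits include libraries that did not match their own calf, and none was repeated without them. On d 0 DDX58 had 63.1, 84.4 and 149.7 CPM in weaned and 60.4, 131 and 197 CPM in control calves, and XPO1 41.6, 62.2 and 80.5 CPM and 58.3, 80.3 and 124 CPM. On d 7 the corresponding values were 58.4, 82.2 and 209 CPM and 21.0, 36.8 and 69.3 CPM for DDX58, and 34.4, 59.8 and 176 CPM and 25.1, 31.9 and 52.7 CPM for XPO1. In DDX58 and in XPO1 the 2 treatments overlapped on both days.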

How the data were processed

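RNA of total leukocytes, taken after lysis of red cells, was sequenced as 36-base single reads. The deposited table holds raw counts per Ensembl gene, made by the authors with Bowtie 0.12.7 against the Btau4.0 genome without mismatches, with multi-aligned reads suppressed, 1 read kept per position and genes counted by HTSeq 0.4.6p2 in union mode; strand was not stated. Keeping 1 read per position limits the counts of abundant genes. Every column was mapped to a library by its label, and 0 columns were unused.

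CPM was the count over the column sum. The 923 genes and the gene and marker lists were chosen with earlier results of these data known. Genes named in the text were chosen by a rule. They were list members with the highest mean CPM and members with the largest decline. Members with the smallest edgeR p in each tested comparison were named too, in each direction. The library values singled out beside them were picked with their values in view. For symbols, human orthologs listed in the tables of the study were used, which gave 112 members a name. Genes with at least 10 counts over the libraries of a comparison were fitted with edgeR 4.0.16 in R 4.3.3 (TMM, quasi-likelihood test, Benjamini-Hochberg adjustment over all genes tested). A gene was called at an adjusted p under 0.05 with a 2-fold change. DESeq2 1.42.0 was the alternative tool. The edgeR fit was also run on simulated counts.

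Libraries of the same calf share its number, so the numbers pair the samples: deviations from the group means correlated within calves at a mean r of 0.21 to 0.48 over 5 comparisons, although not in every pair. Replicates differed by more than sampling noise, at a chi-square per degree of freedom of 2.79 to 57.9 over 120 pairs, so none was counted as a copy. Total counts were 1662995 to 4256011 per library. Alternatives were other normalisation, filters, pseudocounts, tools, blocks for calf and flowcell, and leaving out each calf. Leaving out calf 1758 or 1755 under the calf block, pairs of calves between treatments, and calf 1758 for shares and markers, was added after seeing the data. No sequence or coordinate is given, since no genome or annotation of the build used by the authors was at hand. The values of 1 gene of the kinase and GTPase list are not reported here.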

Additional observations from a re-analysis of the deposited data

Results flagged for a closer look

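In 40 groups of 6 values, 7 had a highest or lowest value set apart from the others by Dixon's criterion, where chance gives about 1 in 20. The share of counts on the 923 genes was 9.83% in weaned calf 1773 on d 1 and 10.5% in weaned calf 1758 on d 2. The median change of the 923 genes from d 0 to d 1 was -1.59 in control calf 1763, far below the other control calves. In all control calves this change starts from a d 0 library that the rule used. CCNT2 and CP110 stood at 126 and 47.4 CPM in weaned calf 1773 on d 1. EIF4E and JAK2 stood at 25.4 and 148 CPM in weaned calf 1758 on d 2. The single genes and the shares come from the same libraries and are not separate observations. The cause was not tested.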

How the results depend on the processing

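In the 6 comparisons that the rule did not use, 0 of the 923 genes were called under every alternative that was run, leave-one-out included. The counts at an unadjusted p under 0.05 moved. In weaned calves on d 7 the 3 higher genes became 5 without a filter, 7 with DESeq2, 53 with a flowcell block and 0 without calves 1758 and 1770, with or without the replicate block, and 0 to 21 with 1 calf left out (median change -0.09 to 0.43). On d 1 the 222 became 424 with a flowcell block, 587 with calf as replicate block, 372 with that block and without calf 1758, and 27 to 438 with 1 calf left out (0.23 to 0.62). On d 2 the 13 became 20 with size factors, 30 with DESeq2, 4 with the replicate block and without calf 1758, and 0 to 54 (-0.06 to 0.54). Between treatments the 6 on d 1 became 451 with a flowcell block, 133 without calves 1755 and 1773 and 2 to 372 (-0.04 to 0.57), and the 34 on d 2 became 5, 7 without calves 1755 and 1758, and 3 to 101 (-0.05 to 0.47). For control d 2 against d 1 the 3 lower became 0 with a flowcell block, 1 with the replicate block, 0 with that block and without calf 1755, and 0 to 24 (-0.37 to 0.12). With flowcell as a block the medians were 0.74 and -0.06 between treatments on d 1 and d 2 and 0.13 for control d 2 against d 1. The cause was not tested. A library alone on its flowcell within a comparison adds nothing to such a fit, so not every calf counted in these fits. Weaned calf 1809 thus dropped out of d 1 against d 0, and control calf 1759 out of d 2 against d 1. In the contrast of the rule, 272 members were called lower, 9 with a flowcell block and 0 (without 1755, 1759 or 1763) to 533 with 1 calf left out (median -1.04 to -0.72), and nothing is read from it. The 923 genes became 528 with a pseudocount of 5, 341 at a mean of -1 or lower, 68 from the calves on 1 flowcell, of which 53 were shared, and 387 to 1738 with 1 calf left out. On CPM scaled by TMM the rule gave 732 genes, of which 694 were shared with the 923. CXCL10 in weaned calves on d 1 ran from -0.37 to 0.14 with 1 calf left out, and BTLA on d 7 was -0.0015 without calves 1758 and 1770 and -0.019 with the replicate block as well. Depth limits low genes such as CXCL10 and CCT6A, with libraries of 3 counts or fewer in 54 of the 923.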
